A study of Mus musculus with 6 samples.

Results

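The 8 genes described here, Ccnd1, Ccnd2, Ccnd3, Ccne1, Ccne2, Cdk2, Cdk4 and Cdk6, encode the G1 cyclins and the kinases they activate. They were followed in H3K27ac ChIP-seq peaks of B16 F10 cells, a mouse melanoma line, by taking every region that overlapped 1 of the genes (GENCODE, mm10) or the 20 kb on either side. This gave 128 of the 182956 regions that remained when the peaks of the 4 H3K27ac libraries were merged. Seeding was at 100 cells per cm2 for the progressive pigmentation model, in which cells at low density gain melanin, and the cells were sorted on day 5 by side scatter into a low pigment (LP) and a high pigment (HP) population. Each population had 2 replicates. LP and HP carried no engineered allele or drug and came out of the same kind of culture, so the sort is the only difference that the labels name. Each population also had its own libraries, and effects of the sort and of library preparation cannot be told apart. B16 F10 is 1 tumour line, although its cell type label reads melanocytes. The labels do not say whether the replicates were separate cultures, and p-values then measure only the spread between these samples, which may be technical.

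Cells leave G1 when growth signals raise the D-type cyclins (cyclin D1, D2 and D3, from Ccnd1, Ccnd2 and Ccnd3). These bind CDK4 or CDK6, and the complexes phosphorylate the retinoblastoma protein and release the E2F factors. E2F then induces the E-type cyclins (Ccne1, Ccne2), which activate CDK2 and carry the cell into S phase. H3K27ac, acetylation of lysine 27 of histone H3, marks active promoters and enhancers. In pigment cells Cdk2 has a particular place, because it lies head to head with Pmel, which encodes the fibril protein of the melanosome.

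The LP libraries held 11467942 and 15353176 fragments in replicates 1 and 2, and the HP libraries 11483830 and 14254904. The height of a region in a library was its pileup, the number of fragments over its highest summit, divided by the fragments of the library and multiplied by 1000000 (scaled pileup). Pileups of the 24 regions that were called at the 8 genes in all 4 libraries ran from 8 to 107 fragments in LP replicate 1 and from 18 to 246 in HP replicate 2, so the lowest of them rest on few fragments. All 7 melanocyte markers examined (Mitf, Sox10, Pmel, Tyr, Tyrp1, Dct, Mlana) had a region within 3 kb of a transcription start site (TSS) in all 4 libraries, whereas Krt5 of keratinocytes and Ptprc of blood cells had none in any. The region of Pmel is the one it shares with Cdk2. Of the other markers, Krt14 and Col1a2 had a region in HP replicate 2 alone, Col1a1 in 3 libraries and the endothelial marker Pecam1 in all 4. In a sorted population a change in the share of cells that carry the mark and a change in the mark per cell cannot be told apart.

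Promoter sequences are shown for the genes whose H3K27ac is discussed at the level of the start site. They are from RefSeq on GRCm38.p6, the assembly of mm10, are written 5′ to 3′ on the strand of the gene, and are the longest stretch before the RefSeq start that touches no annotated exon. RefSeq promoters were found for 5 of the 8 genes, 6 in all, as Ccnd3 has a pair of starts. Capitals mark exact matches, on either strand. The motifs were CACGTG (E-box), CATGTG (a variant of the E-box), CTTTGAT (Lef1), TGACGTCA (CRE), TGACTCA (AP-1), GGGCGG (Sp1) and CCAAT. For E2F they were TTTCCCGC, TTTCGCGC, TTTGCCGC and TTTGGCGC. None of these motifs contains another. For Cdk4 the stretch is chr10:127063285-127063533 on the plus strand, for Cdk2 chr10:128705052-128705179 on the minus strand, for Ccne1 chr7:38107535-38107740 on the minus strand, and for the first start of Ccnd3 chr17:47504801-47505050 on the plus strand.
Cdk4: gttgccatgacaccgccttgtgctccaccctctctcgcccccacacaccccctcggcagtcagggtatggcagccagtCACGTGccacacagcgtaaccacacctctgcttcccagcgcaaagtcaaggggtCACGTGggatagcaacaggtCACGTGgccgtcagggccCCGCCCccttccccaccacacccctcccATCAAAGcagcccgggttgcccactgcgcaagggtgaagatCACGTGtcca
Cdk2: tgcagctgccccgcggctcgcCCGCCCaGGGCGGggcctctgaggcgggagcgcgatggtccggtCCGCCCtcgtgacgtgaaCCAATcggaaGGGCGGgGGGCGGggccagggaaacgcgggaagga
Ccne1: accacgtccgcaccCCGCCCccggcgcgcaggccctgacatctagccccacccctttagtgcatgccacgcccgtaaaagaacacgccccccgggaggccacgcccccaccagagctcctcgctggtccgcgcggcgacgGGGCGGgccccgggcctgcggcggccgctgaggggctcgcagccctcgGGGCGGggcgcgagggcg
Ccnd3: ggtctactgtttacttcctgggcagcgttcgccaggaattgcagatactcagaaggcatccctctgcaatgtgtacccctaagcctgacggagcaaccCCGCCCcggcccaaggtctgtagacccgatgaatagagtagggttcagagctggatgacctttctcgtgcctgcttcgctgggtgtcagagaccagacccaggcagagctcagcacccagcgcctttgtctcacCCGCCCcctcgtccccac

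Cdk4 stood out by its E-boxes. Its 300-base window, from 250 bases before to 50 after the start, held 4 copies of CACGTG, beginning 172, 118, 98 and 11 bases before the start, and 1 Lef1 match. At least 1 CACGTG was found in 7.15% of the 32851 RefSeq promoters and in 11.1% of the 10212 that overlapped a region called in all 4 libraries, and 4 or more in 8 promoters (0.0244%). The window of Cdk6 held 1 CACGTG. The E2F motif was found in the window of Cdk2 alone among the 6, in the part not printed, against 2.26% of all promoters and 4.79% of those in regions called in all 4 libraries. Sp1 matches were found in 5 of the 6 windows, with 6 in Cdk2, 4 in Ccne1 and 3 in Cdk4, and 70.9% of the promoters in such regions held at least 1. CCAAT was found at Cdk2 and at the second start of Ccnd3, and in 37.4% of all promoters. CATGTG, AP-1 and CRE had no match in the 6 windows, and they were found in 14.2%, 5.20% and 1.79% of all promoters. A match describes the letters only.

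The promoters of the 8 genes carried H3K27ac in both populations. Each had a region within 3 kb of a TSS in all 4 libraries, and the mean height of these regions lay between the 27.3 percentile (Ccnd2) and the 78.6 percentile (Ccne2) of the 10064 promoter regions called in all 4. The 4-library ranges of all 8 overlapped, but libraries differ in level, so this does not settle the order by height. Within each library Ccne2 lay above Ccnd2, with 7.94, 4.56, 6.79 and 10.9 against 2.09, 1.95, 2.61 and 4.77 (LP, then HP replicates). The order of the 8 was not tested. In 7 of the 8, all but Ccne2, both HP values lay above both LP values, as they did in 74.8% of all 12084 regions called in all 4 libraries. On the log2 scale the 8 differences between HP and LP ran from 0.52 to 1.51 with a median of 1.02, against 0.90 over all promoter regions. The Ccnd3 value among them, 1.23, came from a region at the Taf8 start, and the region at its own 5′ end had 0.83. The median is lower with that region in its place. None of the 8 passed the threshold, with adjusted p-values from 0.0661 to 0.394 (limma, two-sided, Benjamini-Hochberg over the 12084 regions). In this fit the standard error was 0.54 for every region, on the log2 scale. Over all 12084 regions the median difference was 0.92, and when each library was centred on its own median the differences of Ccnd2, Ccne1, Ccne2 and Cdk6 turned negative while those of Ccnd1, Cdk2 and Cdk4 and of the Ccnd3 region, whose summit is at the Taf8 start, stayed positive. The regions at the 5′ end and the second start of Ccnd3 had -0.18 and -0.63 after centring.

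**Figure D1:**
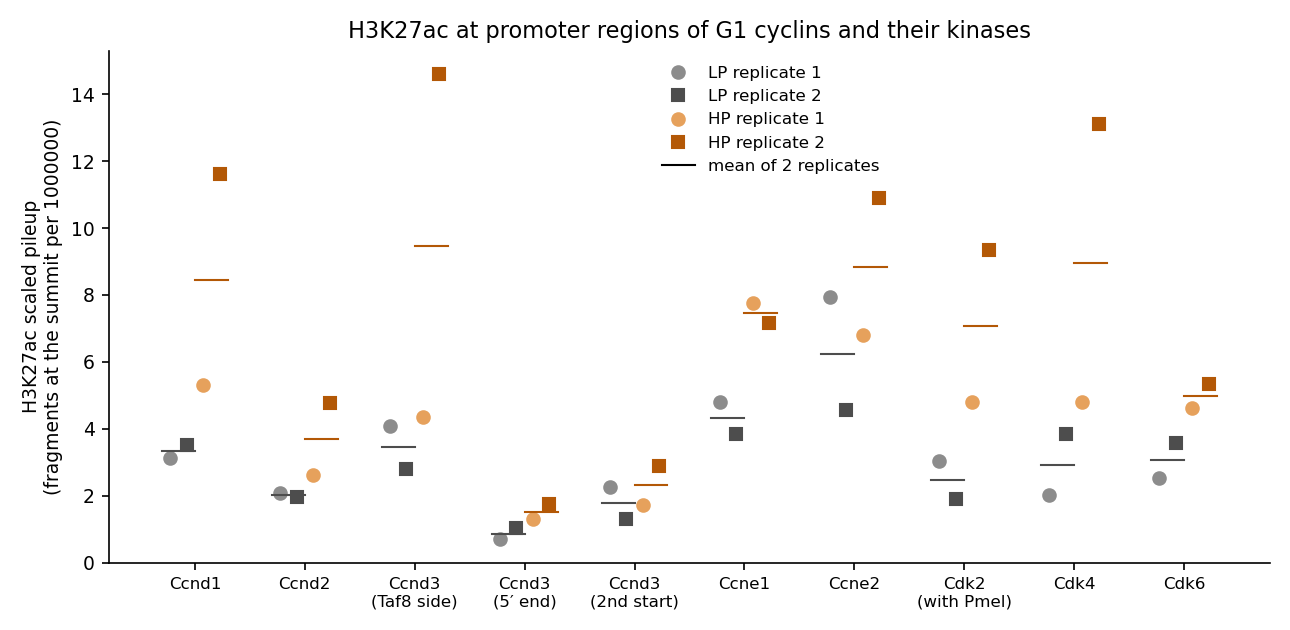
Scaled pileup of H3K27ac (fragments at the summit per 1000000, linear axis from 0) at the promoter region of each gene, with all regions at the starts of Ccnd3, for LP (grey) and HP (orange), with points for the 2 replicates and bars for their mean. HP replicate 2 was the highest library at every region shown but that of Ccne1, and after centring the HP over LP differences of Ccnd2, Ccne1, Ccne2, Cdk6, the 5′ end of Ccnd3 and its second start were negative.

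Among the D-type cyclins, Ccnd1, the cyclin most often amplified in cancer, had a broad promoter region of 5561 bp (chr7:144937965-144943525), longer than 99.1% of promoter regions called in all 4 libraries. Its scaled pileup was 3.14 and 3.52 in the LP replicates versus 5.31 and 11.6 in the HP replicates, from 36, 54, 61 and 165 fragments. HP replicate 2 was the highest library and the groups did not overlap. The difference was 1.24 on the log2 scale (adjusted p = 0.105 by limma). The highest summit lay upstream of the gene in all 4 libraries, 1399 to 1567 bp from its 5′ end. In HP replicate 2 a single peak of 5546 bp spanned the region, while LP replicate 1 had 2 peaks, of which the longer was 547 bp, and LP replicate 2 and HP replicate 1 had 4 each. Of all 10064 promoter regions called in all 4 libraries, 94.4% were 1 peak in HP replicate 2. The shares were 84.4% and 81.6% in the LP replicates and 73.9% in HP replicate 1.

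Ccnd2 had the longest of the 8 promoter regions, 6635 bp (chr6:127148983-127155617), which it shared with the non-coding gene 9330179D12Rik on the opposite strand. Its scaled pileup was 2.09 and 1.95 in LP versus 2.61 and 4.77 in HP, a log2 difference of 0.80 (adjusted p = 0.224 by limma) and of -0.21 after centring. It was broken into 4 peaks in each LP library, into 2 in HP replicate 1 and was 1 peak in HP replicate 2. The covered length was 1737 and 3084 bp in LP versus 5939 and 6635 bp in HP. At Ccnd2 the populations thus lay further apart in the length called than in the height at the summit. Covered length was also greater in HP over all promoter regions called in all 4 libraries, with a median log2 ratio of 0.57. The difference in length was not tested.

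Ccnd3 had several regions at its starts, and the highest was not its own in position. That region (chr17:47501364-47503456) met the promoter definition, as it reached within 3 kb of a Ccnd3 start, but its highest summit lay 115 to 150 bp from the 5′ end of the neighbouring Taf8, which encodes a TFIID subunit, and 2874 to 2909 bp upstream of that of Ccnd3. The scaled pileup there was 4.10 and 2.80 in LP versus 4.35 and 14.6 in HP, and the log2 difference of 1.23 (adjusted p = 0.105 by limma) came to 0.09 in replicate 1 and 2.38 in replicate 2. At the 5′ end of Ccnd3 itself (chr17:47504559-47505629, over the sequence printed above) the scaled pileup was 0.698 and 1.04 in LP versus 1.31 and 1.75 in HP. These 4 values were low and did not overlap between the populations, with a log2 difference of 0.83 (adjusted p = 0.213 by limma). The second start (chr17:47593157-47595063) had 2.27 and 1.30 in LP versus 1.74 and 2.88 in HP, and there the populations overlapped (log2 difference 0.38, adjusted p = 0.520 by limma).

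The E-type cyclins had promoter differences below the median of all regions, 0.92, as had Ccnd2 (0.80), Cdk6 (0.72) and the 5′ end of Ccnd3 (0.83). Ccne1 (chr7:38106587-38108531) reached scaled pileups of 4.80 and 3.84 in LP versus 7.75 and 7.16 in HP. Its HP replicates lay close together and above both LP replicates, and the log2 difference was 0.79 (adjusted p = 0.228 by limma) and -0.22 after centring. Ccne2 (chr4:11189998-11192387) had 7.94 and 4.56 in LP versus 6.79 and 10.9 in HP. Its populations overlapped, alone among the 8 promoters, as LP replicate 1 lay above HP replicate 1, and its log2 difference of 0.52 (adjusted p = 0.394 by limma) was made of -0.22 in replicate 1 and 1.26 in replicate 2.

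Cdk2, the partner of the E-type cyclins, shared its region with Pmel (chr10:128703772-128707111). The scaled pileup was 3.05 and 1.89 in LP versus 4.79 and 9.33 in HP, from 35, 29, 55 and 133 fragments, a log2 difference of 1.48 (adjusted p = 0.0706 by limma), 0.65 in replicate 1 and 2.30 in replicate 2. GENCODE places 3 Pmel starts in the region, at 836 bp inside Cdk2 and at 149 and 1227 bp from the Cdk2 5′ end on the Pmel side. The highest summit lay 121 to 368 bp inside Cdk2 in all 4 libraries. This is where the genes overlap, as it is also 468 to 715 bp inside Pmel when counted from the Pmel start within Cdk2. Around the Pmel start farthest from Cdk2, LP replicate 1 had no peak and LP replicate 2 a separate low one, with a summit 381 bp from that start, 11 fragments and a scaled pileup of 0.716. In each HP library 1 peak ran from Cdk2 past this start, 2230 bp long in replicate 1 and 3130 bp in replicate 2, so the value cannot be given to either gene alone.

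Cdk4, a kinase of the D-type cyclins, had its promoter region over the first part of the gene (chr10:127063131-127065261). The scaled pileup was 2.01 and 3.84 in LP versus 4.79 and 13.1 in HP, from 23, 59, 55 and 187 fragments, and the log2 difference was 1.51 (adjusted p = 0.0661 by limma), 1.26 in replicate 1 and 1.77 in replicate 2. This differed from the 1.48 of Cdk2 by far less than the standard error, and without LP replicate 1 the values were 1.04 at Cdk4 and 1.82 at Cdk2. The Cdk4 summit lay 136 to 291 bp inside the gene in all 4 libraries, downstream of the E-boxes printed above, and each library had it as 1 peak. Cdk6, the other kinase of the D-type cyclins, had its region (chr5:3341981-3345467) 2746 to 2885 bp inside the GENCODE gene at the summit, and over the RefSeq start at 3343893. The scaled pileup was 2.53 and 3.58 in LP versus 4.62 and 5.33 in HP, a log2 difference of 0.72 (adjusted p = 0.262 by limma) and of -0.29 after centring. The region at the GENCODE 5′ end of Cdk6 (chr5:3341118-3341876) was lower, with 0.959 and 1.89 in LP versus 2.70 and 1.61 in HP, and overlapped between the populations.

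The 128 regions comprised 30 within 3 kb of a TSS of the gene itself, 27 within 3 kb of a TSS of another gene and 71 distal ones. Of these, 24 (18.8%) were called in all 4 libraries, against 6.60% of all merged regions, and 78 (60.9%) in 1 library only, against 81.7% of all. Windows placed on active genes hold promoters by construction, and 11 of the 24 were promoters of the gene itself, 8 of a neighbour and 5 distal. All 24 differences between HP and LP were above 0 on the scaled pileup, as were 99.0% of all regions, with a range of 0.09 to 1.76 and a median of 0.80, against 0.92 over all regions, while after centring only 8 of the 24 were above 0, against 41.5% of all. HP lay above LP without overlap in 19 of the 24, against 74.8% of all regions called in all 4 libraries. The medians were 0.80 at promoters of the genes themselves, 0.77 at those of neighbours and 0.58 at the distal regions, against 0.90 over all promoter regions and 1.06 over all distal regions. The 3 medians at the 8 genes thus lay below those of all regions of their kind. The first depends on the regions counted, as the promoter region chosen for each of the 8 genes gave a median of 1.02, above 0.90. The distal median rests on 5 regions. These differences were not tested.

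**Figure D2:**
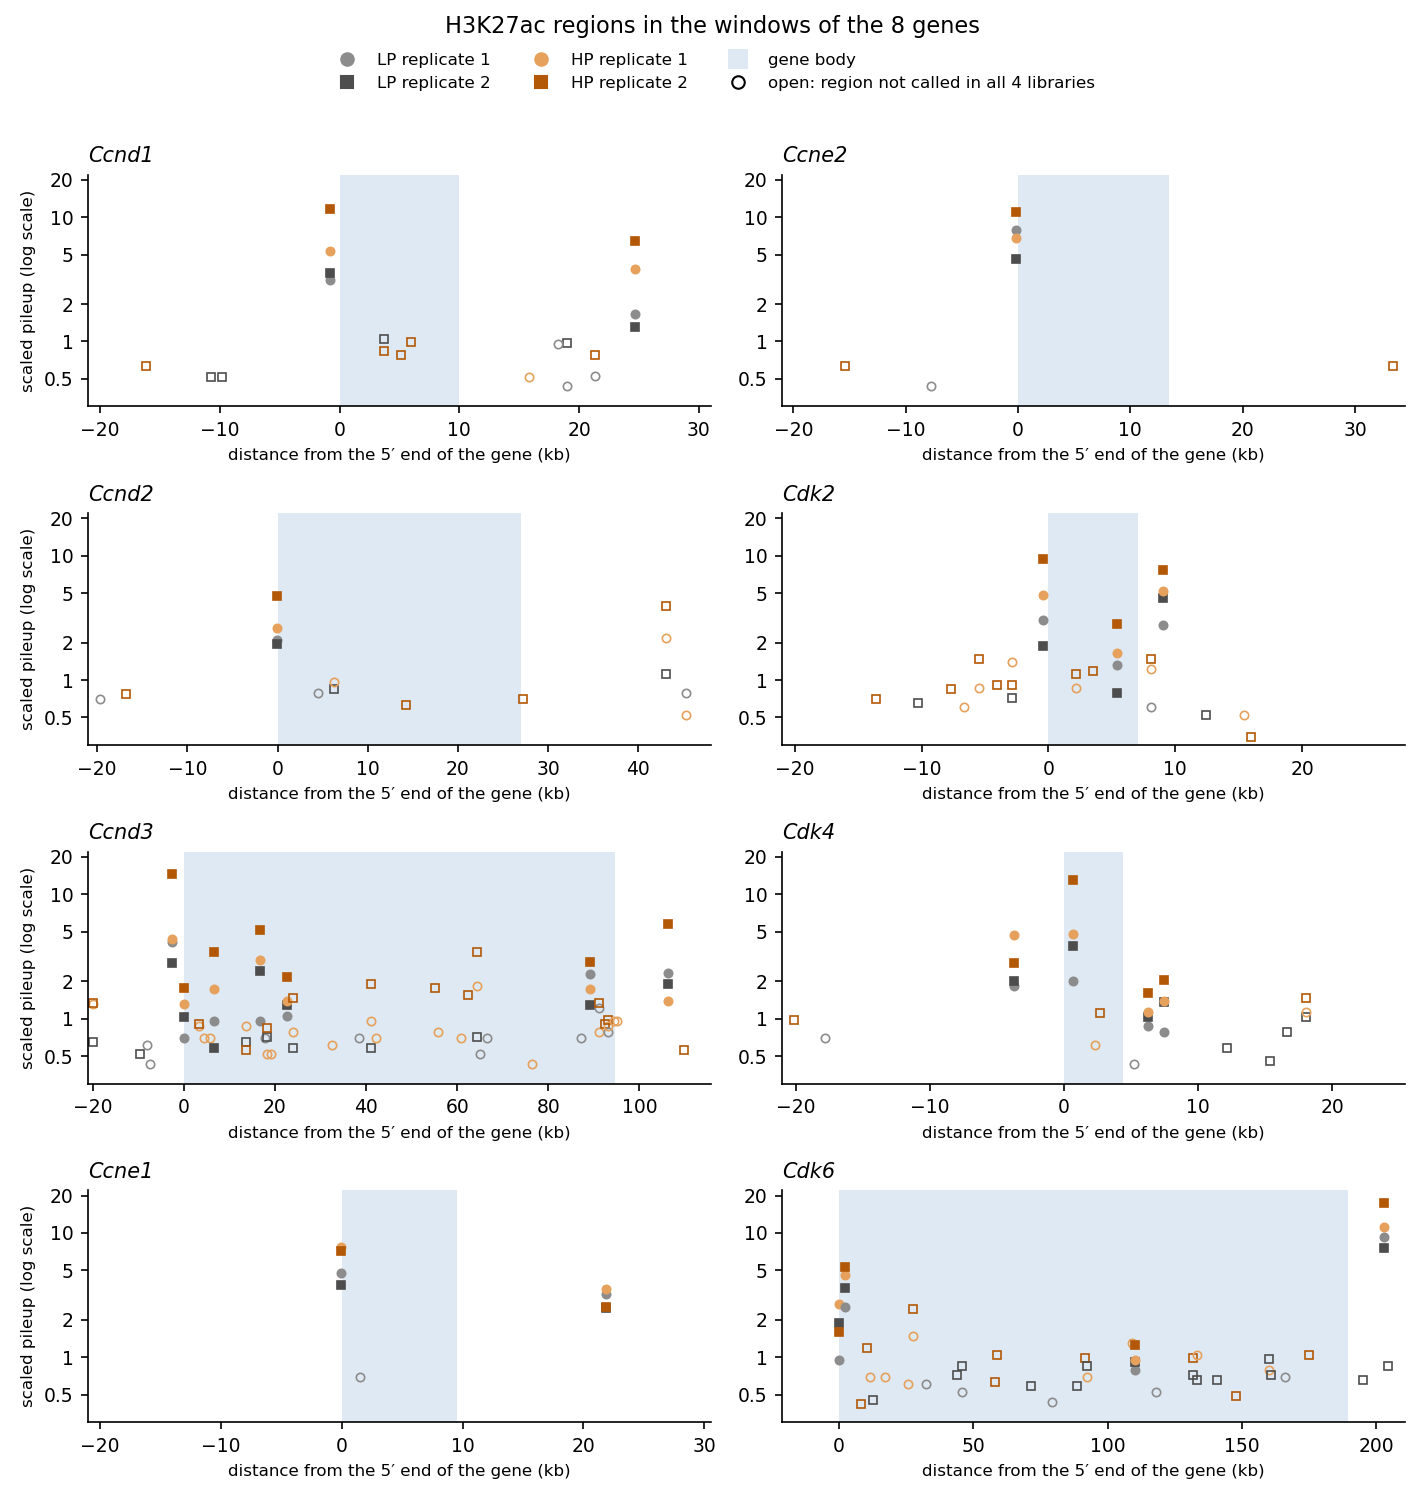
Scaled pileup (log axis) of every H3K27ac region against the distance of its midpoint from the 5′ end of the gene (kb, in the direction of transcription), for the 8 genes with 20 kb on either side; filled points are regions called in all 4 libraries and open points are the rest. The windows of Ccnd3 and Cdk6 hold most of the open points, and those of Ccne1 and Ccne2 hold 3 and 4 regions in all.

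Of the 24 regions, 2 were higher in HP past the threshold and none was lower, against 4.01% higher and 0.00% lower of all 12084. At an unadjusted p under 0.05, 8 of the 24 were higher (36.2% of all) and none lower. The first was the promoter region of LTO1, a maturation factor of the iron-sulphur protein ABCE1, 24.7 kb from the 5′ end of Ccnd1 (chr7:144914676-144915766). It also lay within 3 kb of a start of the gene Bc1. It is 1 of 3.10% of promoter regions past the threshold. Its scaled pileup was 1.66 and 1.30 in LP versus 3.83 and 6.45 in HP, both HP values above both LP values, and the log2 difference was 1.76 (adjusted p = 0.0474 by limma). With the replicate number as a block its adjusted p was 0.0607.

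The second was a distal region in an intron of Ccnd3 (chr17:47511019-47512371), 6.64 kb from the 5′ end of the gene, where 8.56% of all distal regions passed. Its scaled pileup was 0.959 and 0.586 in LP versus 1.74 and 3.44 in HP, from 11, 9, 20 and 49 fragments. Both HP values lay above both LP values, with a log2 difference of 1.71 (adjusted p = 0.0489 by limma) and an adjusted p of 0.0621 with the replicate block. Taking the mean of the summits in place of the highest gave adjusted p = 0.115 for both regions, and centring gave 1.00. The 201 bases around its highest summit, chr17:47511460-47511660 on the plus strand of GRCm38, held no match to the motifs above, and no base of them was masked as a repeat. The matching window of the Ccne1 distal region described next, chr7:38085901-38086101, also held none and is shown beside it. Among 2016 distal regions called in all 4 libraries, CCAAT was found in 15.5% and Sp1 in 15.8% of such windows. CATGTG was found in 11.5% and the E2F motif in 0.893%.
Ccnd3 intron: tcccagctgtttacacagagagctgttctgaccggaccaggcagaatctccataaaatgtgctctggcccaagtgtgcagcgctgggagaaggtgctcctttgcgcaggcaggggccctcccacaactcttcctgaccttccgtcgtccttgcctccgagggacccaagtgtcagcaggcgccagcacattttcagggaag
Ccne1 distal: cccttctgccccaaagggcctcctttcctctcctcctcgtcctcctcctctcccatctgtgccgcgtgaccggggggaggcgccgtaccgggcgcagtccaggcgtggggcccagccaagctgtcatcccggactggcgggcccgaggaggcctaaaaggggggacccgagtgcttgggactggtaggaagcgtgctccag

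The other distal regions called in all 4 libraries spread widely. A further Ccnd3 intron region (chr17:47521109-47522629) had the highest mean of the distal regions of that gene, with 0.959 and 2.41 in LP versus 2.96 and 5.19 in HP and a log2 difference of 1.37 (adjusted p = 0.0847 by limma). The next, at chr17:47526898-47528318 had 1.05 and 1.30 in LP versus 1.39 and 2.17 in HP (log2 difference 0.58). These lay 16.82 and 22.56 kb from the 5′ end, so that 3 of the 5 distal regions lay in introns of Ccnd3, within 22.56 kb of its 5′ end. The Cdk6 intron region 110.25 kb from the 5′ end (chr5:3451008-3452458) had 0.785 and 0.912 in LP versus 0.958 and 1.26 in HP, a log2 difference of 0.38.

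The region downstream of Ccne1, 21.88 kb from its 5′ end (chr7:38084711-38086588), had the smallest difference of the 24. Its scaled pileup was 3.23 and 2.48 in LP versus 3.57 and 2.53 in HP, from 37, 38, 41 and 36 fragments, so the replicates of a number lay closer together than those of a population. The log2 difference of 0.09 (adjusted p = 0.880 by limma) lay at the 1.53 percentile of all regions and the 3.37 percentile of distal ones. The authors' fold enrichment at its summit was 5.48 and 5.09 in the replicate 1 libraries and 15.7 and 16.7 in those of replicate 2, which were called against different IgG libraries. Covered length differed in the same way, 337 and 339 bp in replicate 1 against 1195 and 1878 bp in replicate 2.

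Some regions were called in 1 population only. In both HP replicates and no LP replicate there were 4 of the 128 (3.12%, against 3.94% of all merged regions), and in both LP replicates and no HP replicate 2 (1.56%, against 0.249%). The region of the HP set with the most fragments lay in an intron of Cdk6, 27.63 kb from the 5′ end (chr5:3368653-3369572), with 17 and 35 fragments (scaled pileup 1.48 and 2.46). The 201 bases around its summit were masked as repeat over their whole length (100%), where 15.7% of 4725 distal regions of this pattern had over 50% repeat bases. The others lay in Ccnd3 (chr17:47508073-47508646, 10 and 13 fragments), in Cdk2 next to its promoter region (chr10:128702422-128703279, 10 and 16 fragments) and in the Pmel gene 5.48 kb upstream of Cdk2 (chr10:128709912-128711105, 10 and 21 fragments, 78.1% repeat bases). The LP set lay in LTO1 near Ccnd1 (chr7:144920796-144921149, 5 and 15 fragments) and in an intron of Cdk6 (chr5:3387069-3387406, 6 and 13 fragments). These pileups lay between 5 and 35 fragments, where the median peak had 7 and 11 in the LP libraries and 10 and 12 in the HP libraries. A peak missing from a list does not show that the mark was absent.

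A further 12 regions were called in 3 libraries, and all 12 had a peak in both HP replicates. LP replicate 1 was the missing library at 9 of them (75.0%, against 77.5% of all regions called in 3 libraries) and LP replicate 2 at 3 (25.0%, against 18.0%). Ccnd3 held 8 of the 12. The highest of these, in an intron of Ccnd3 64.27 kb from the 5′ end (chr17:47568710-47569939), had a scaled pileup of 0.716 in LP replicate 2 and of 1.83 and 3.44 in the HP replicates. In the Ccnd2 window the promoter region of Tigar, which encodes a fructose bisphosphatase that restrains glycolysis (chr6:127108432-127109818), had 1.11 in LP replicate 2 and 2.18 and 3.93 in the HP replicates. Neither entered the fit, which needs a value in every library. Of the 78 regions called in 1 library, LP replicates 1 and 2 held 18 and 16 and HP replicates 1 and 2 held 18 and 26. These were 23.1%, 20.5%, 23.1% and 33.3% of the 78, against 26.6%, 26.4%, 21% and 26.1% of all regions called in 1 library. The difference in these shares was not tested. The highest of the 78 was another Ccnd3 intron region, in HP replicate 2 with 25 fragments and a scaled pileup of 1.75 (chr17:47559876-47560566).

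At the neighbours' promoters no further region passed. Rab5b, a GTPase of early endosomes next to Cdk2, had 2.79 and 4.56 in LP versus 5.22 and 7.65 in HP (log2 difference 0.83). Another region near a Rab5b start, with its midpoint in a Cdk2 exon, had 1.31 and 0.782 in LP versus 1.65 and 2.81 in HP (log2 difference 1.09). The promoter of Fam133b, at the 3′ end of Cdk6, was the highest of all 24, with 9.33 and 7.62 in LP versus 11.1 and 17.3 in HP (log2 difference 0.71). Bysl and Med20, a ribosome biogenesis factor and a Mediator subunit beyond Ccnd3, shared a region in which the populations overlapped, with 2.35 and 1.89 in LP versus 1.39 and 5.82 in HP (log2 difference 0.43). March9, a membrane ubiquitin ligase next to Cdk4, had 1.83 and 2.02 in LP versus 4.70 and 2.81 in HP (log2 difference 0.92), and here HP replicate 1 was the higher one.

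HP replicate 2 was the highest library at 20 of the 24 regions and HP replicate 1 at the other 4, and HP replicate 2 was the highest at 86.4% of all 12084 regions. In replicate 1 the HP over LP difference was above 0 in 21 of the 24, with a median of 0.67 (0.57 over all regions, 82.2% above 0). In replicate 2 it was above 0 in 23, with a median of 1.13 (1.30 over all regions, 98.6% above 0). The 3 regions below 0 in replicate 1 were those of Ccne2, the second start of Ccnd3 and Bysl with Med20, and the 1 below 0 in replicate 2 was the 5′ end of Cdk6. Without HP replicate 2 none of the 24 passed the threshold, and without HP replicate 1 there were 10, among them the promoter regions of Ccnd1, Ccnd2, Cdk2 and Cdk4 and the one between Taf8 and Ccnd3, beside 6930 regions in all.

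**Figure D3:**
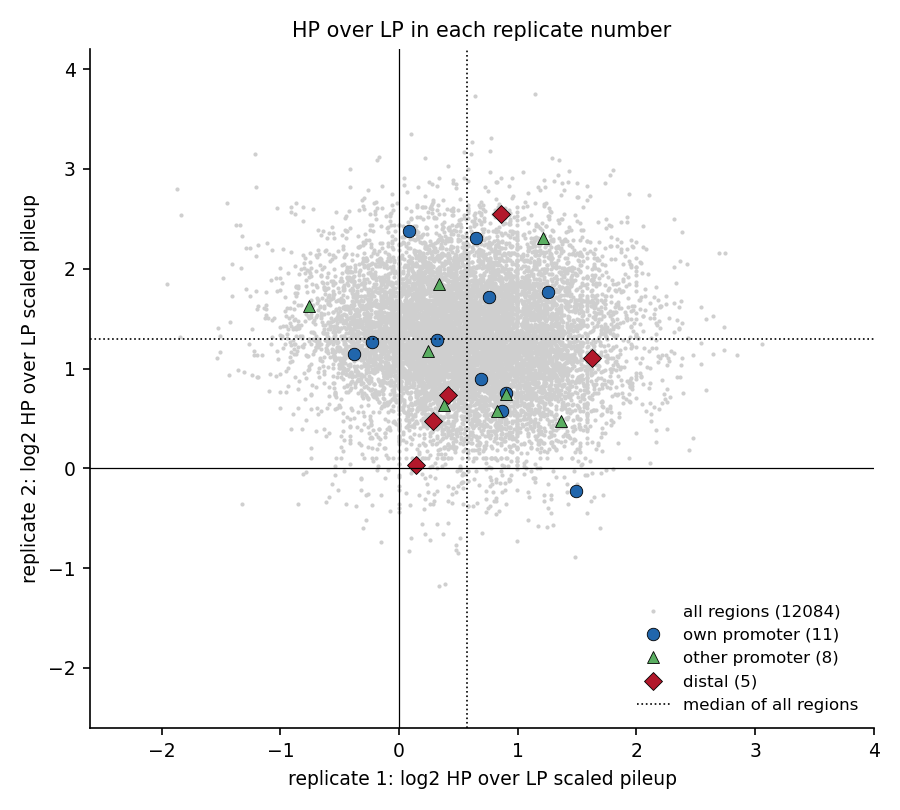
Log2 of HP over LP scaled pileup in replicate 1 (x axis) against replicate 2 (y axis) for all 12084 regions called in all 4 libraries (grey) and for the 24 regions at the 8 genes, coloured by class, with dotted lines at the medians of all regions. Before centring 21 of the 24 lie right of 0 and 23 above 0, and they spread through the grey cloud; after centring 8 of the 24 mean differences were above 0.

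Over the 8 windows the numbers of peaks were 56 and 70 in LP versus 71 and 71 in HP, an HP to LP ratio of 1.13, against 1.09 over the whole lists. Covered length differed more, with 24562 and 41633 bp in LP versus 50829 and 68645 bp in HP, ratios of 2.07 in replicate 1 and 1.65 in replicate 2, against 1.69 and 1.45 over the whole lists. Ccnd3 contributed the most, with 5895 and 6437 bp in LP versus 14762 and 18368 bp in HP, from 17, 16, 29 and 20 peaks. Cdk2 with Pmel followed, with 2842 and 5262 bp in LP versus 7464 and 12700 bp in HP. In both windows the populations did not overlap in covered length. In the Cdk6, Cdk4, Ccne1 and Ccne2 windows they overlapped, and the Cdk6 window had its largest covered length in LP replicate 2 (9881 bp). Over the whole lists it was 18.9 and 30.3 Mb in LP versus 31.9 and 43.9 Mb in HP, also without overlap. No test was made of covered length, and the share of other genes' windows without overlap was not determined.

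**Figure D4:**
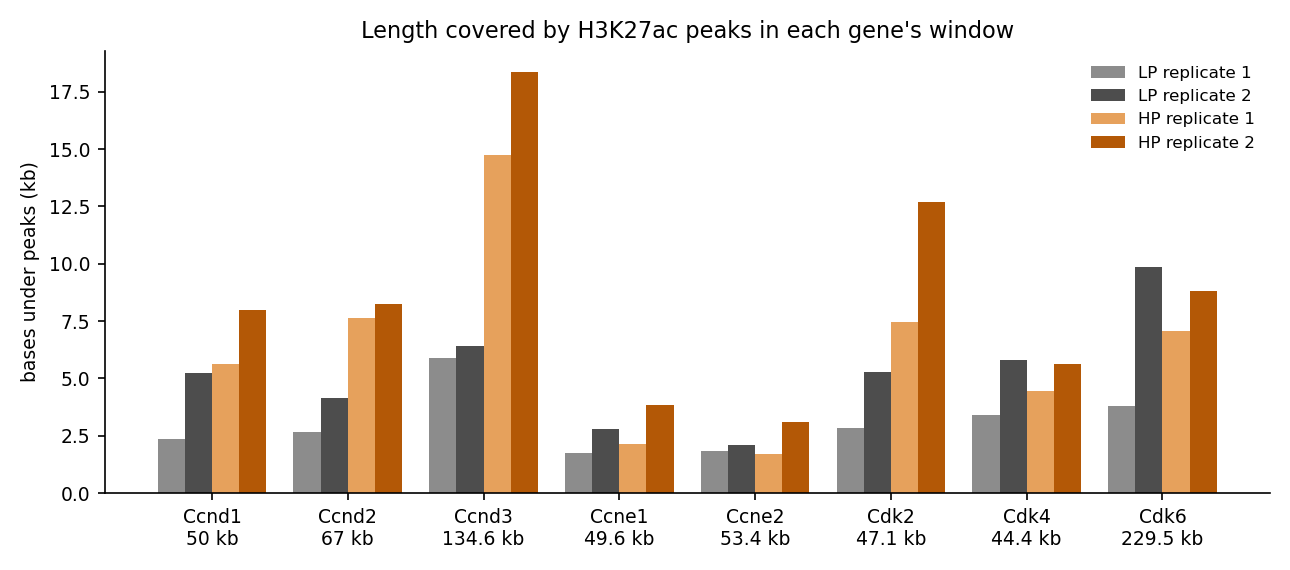
Length under H3K27ac peaks (kb, bars from 0) in the window of each gene, its size given under the name, in the LP (grey) and HP (orange) libraries. The HP bars lie above both LP bars at Ccnd1, Ccnd2, Ccnd3 and Cdk2 and overlap with them at Ccne1, Ccne2, Cdk4 and Cdk6. Over the whole lists the HP libraries also lay above both LP libraries, with 31.9 and 43.9 Mb against 18.9 and 30.3 Mb.

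Other genes of the same control circuit had differences in a similar range. Of 33 genes of G1 and S phase control, 31 had a region within 3 kb of a TSS and 29 had it in all 4 libraries. None of the 29 was higher and none lower past the threshold by limma, and those at an unadjusted p under 0.05 numbered 5, each with the higher level in HP (Cdkn2d, Cdc25a, Skp2, Cdk7 and Myc), against 3.10% of all promoter regions past the threshold and 36.2% of all regions at that unadjusted p. Their log2 differences ran from 0.07 at Rb1, the retinoblastoma gene, to 1.63 at Myc (adjusted p = 0.0532), with a median of 0.83, and after centring the median was -0.18. At Myc, a factor that drives growth and binds CACGTG, the scaled pileup was 0.872 and 1.63 in LP versus 2.87 and 4.70 in HP. At Rb1 it was 5.67 and 3.26 in LP versus 4.62 and 4.42 in HP, where the populations overlapped. The inhibitors of the CDKs had regions at Cdkn1a, Cdkn1b, Cdkn2c and Cdkn2d in all 4 libraries, with log2 differences of 0.83, 1.03, 1.01 and 1.21, and at Cdkn1c in LP replicate 2 alone. At Cdkn2a and Cdkn2b, which encode inhibitors of CDK4 and CDK6, no library had a region, and whether the locus is intact in these cells was not measured here.

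The 3 promoter regions outside these windows most like the mean of the 8 in level over the 4 libraries (3.35, 3.11, 4.91 and 8.95 in LP replicates 1 and 2 and HP replicates 1 and 2) were those of Dcbld1, Zdhhc1 and Pelp1. Their Euclidean distances on the log2 scale were 0.0629, 0.0811 and 0.101. With 4 values a likeness of this kind is a description of the levels only.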

How the data were processed

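H3K27ac ChIP-seq peaks of LP and HP cells (2 replicates each) were analysed, with groups taken from the sample titles. Per the labels, cells were fixed in 1% formaldehyde (the published methods give 10%) and DNA input was equal within a replicate set. The authors trimmed reads with Trimmomatic 0.33, aligned them with Bowtie2 2.5.1 against mm10, and MACS 3.0.0b1 gave narrow peaks for each library at a q-value of 0.05 against the IgG library (unsorted cells) of the same replicate number, with 8701778 and 19358733 fragments. The authors deposited the pileup signal at each summit unscaled, with the fold enrichment and the −log10 q-value, which were used only to describe and filter peaks.

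Peaks overlapping by at least 1 bp were merged into regions, and limma 3.58.1 (R 4.3.3) compared HP with LP on the log2 scaled pileup of the 12084 regions found in every library, without a filter, pseudocount or replicate block and with a threshold of 0.05 on the Benjamini-Hochberg adjusted p. Prior degrees of freedom were infinite, so every region shared 1 variance. An exact permutation test of 2 against 2 cannot go below 0.333 and was not used. The labels tie same-numbered replicates to a replicate set, so the fit with the replicate number as a block was run as an alternative. The deviations of same-numbered replicates correlated at 0.0153 over regions. A gene's promoter region was, within 3 kb of any GENCODE TSS of the gene, the one called in most libraries and then the highest. Beside promoters, the text names regions past the threshold, called in 1 population only, or the highest distal one of a gene, together with neighbours nearest to them. Some further distal regions, neighbours and genes of the G1/S list were chosen for mention after their values were seen. The members and lists were chosen with earlier results of these data known. The fit was tested on simulated data. Alternatives were q-values of 0.01 and 0.001, a 100 bp overlap, centring, quantile normalization, scaling by fragment length, mean summits, the replicate block, windows of 3 and 50 kb, a 1 kb promoter and leaving out libraries. Motifs were matched in Python 3.11.15 on sequence read with samtools 1.23.1. Reads were not used here, so counts over whole regions were not made.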

Additional observations from a re-analysis of the deposited data

How the results depend on the processing

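Summit pileups of 8 to 246 fragments in 2 replicates a population limit these comparisons. The number of all regions higher in HP, 485, was 33 with q-values of at most 0.001, 9 after scaling by fragment length, 88 with the replicate block, and 0 after centring, after quantile normalization and with mean summits. The number at the 8 genes, 2, was 1 at q-values of at most 0.01 and within 3 kb, and 0 at q-values of at most 0.001, after centring, quantile normalization or scaling by fragment length, with mean summits and with the replicate block. The causes were not tested. Leaving out 1 library gave 0 to 6930 regions in all, 0 to 10 at the 8 genes and 0 to 13 of the G1/S list, with the lone library assumed to vary like the others. All non-zero values came without HP replicate 1. No region was lower in HP under any of these settings. The median log2 difference of the 24 regions, 0.80, was -0.21 after centring and -0.16 after quantile normalization, and 0.58 to 1.13 when libraries or replicates were left out. After centring and after quantile normalization the promoter differences reversed at Ccnd2 (-0.21 and -0.24), Ccne1 (-0.22 and -0.13), Ccne2 (-0.49 and -0.29) and Cdk6 (-0.29 and -0.31). Leaving out libraries or replicates gave -0.22 to 1.26 at Ccne2. Without HP replicate 1 the promoters of Ccnd1 (1.80), Ccnd2 (1.24), Cdk2 (1.96) and Cdk4 (2.24) and the Ccnd3 region at the Taf8 start (2.11) passed the threshold. With the replicate block the pairing changed no call at the 8 promoters or in the G1/S list. Regions called only in HP, 4, came to 7 to 35 when libraries or replicates were left out. Those only in LP, 2, came to 2 to 22, and to 1 at q-values of at most 0.01, with a 100 bp overlap or within 3 kb, and 0 at q-values of at most 0.001. With libraries left out, fewer peaks or fewer missing peaks meet the definition, so both of these counts could only stay or rise. The HP to LP ratio of peak numbers, 1.13, was 1.40 at q-values of at most 0.001. Taking the region at the 5′ end of each gene, an alternative chosen after seeing the data, moved no promoter past the threshold, but took Ccnd3 from 1.23 to 0.83, and the 1 kb promoter took it to 0.38. These regions turned negative after centring (-0.18 and -0.63, against 0.22).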
